A study of Mus musculus with 20 samples.

Results

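A set of 10 genes that encode neutrophil granule and S100 proteins was followed in natural killer (NK) cell isolates from mouse spleen. The members were chosen with earlier results of these data known, and their probes were found by gene name. They are S100a8, S100a9, Camp, Ltf, Ngp, Lcn2, Chil3 (named Chi3l3 on the array), Mmp8, Mmp9 and Retnlg. The arrays carried 12 probes for these 10 genes, of 41174 probes in all, and every member was among the 17466 genes tested. The 20 male C57BL/6 mice were dosed daily by gavage over 14 days and formed 4 groups of 5. Ptaquiloside mice received 5.3 mg/kg of this carcinogenic glucoside of bracken fern. Selenium mice received 1.3 mg/kg of selenium, the trace element built into selenoproteins. A further group received both compounds at those doses, and control mice received water. NK cells, innate lymphocytes that kill infected and transformed cells, were left untouched while other spleen cells were retained on magnetic columns, so an isolate may hold cells that escaped removal. Each mouse gave 1 single-colour Agilent array.

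Neutrophils build their granules in an order during development in the bone marrow and, in mice, also in the spleen. Azurophil granules, which hold myeloperoxidase and neutrophil elastase, are filled first in promyelocytes. Specific granules, which hold lactoferrin, cathelicidin and lipocalin, follow in myelocytes, and gelatinase granules are filled last, when Mmp9 is made. S100a8 and S100a9 form calprotectin, an abundant calcium- and zinc-binding protein of the cytosol of neutrophils and monocytes. None of these transcripts is a characteristic product of NK cells.

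Levels are given as the log2 processed signal minus the 75th percentile of the same array, so that 0 marks that percentile, and differences are differences of such levels. The 75th percentile was 45.5 to 133 scanner units on 19 arrays and 10.5 for ptaquiloside mouse 4. The share of spots above background was 36.2% on that dim array and 51.7% to 60.8% on the other 19, and the comparisons of the members are given with and without it. Each of 5 slides held 1 mouse of every group, and a treatment always took 1 array position, so that treatment and position cannot be told apart. All 16 NK marker genes tested were above background on at least 18 arrays, and 14 of them were on all 20. Among them Nkg7, a cytotoxic granule protein, averaged 7.03 with ptaquiloside, 7.30 with selenium, 7.05 with both compounds and 6.94 in control mice. Ly6g, a defining neutrophil surface gene, had no probe by that name and was not analysed here. Of 9 azurophil granule genes 5 were above background on all 20 arrays and the other 4 on 19. In isolates of mixed cells, fewer neutrophils and less granule RNA per neutrophil cannot be told apart.

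The probes show what each level measures. The sequences of 6 probes are printed for the genes on which the results below turn, in lower case, 5′ to 3′ in the direction of transcription, with positions on mm9 (NCBI37) as the array files give them. S100a8 was read at chr3:90473778-90473837 on the plus strand, Camp at chr9:109749992-109750051 on the minus strand and Ltf at chr9:110942873-110942932 on the plus strand. Ngp was read at chr9:110324266-110324814 on the plus strand, a span of 549 bases for a probe of 60, so that its sequence is interrupted in the genome. Lcn2 was read in the same interrupted way at chr2:32241037-32241281 on the minus strand, and Mmp9 at chr2:164780303-164780362 on the plus strand. The S100a8 and S100a9 probes lie within 22.9 kb of chromosome 3, and the Camp, Ngp and Ltf probes within 1190 kb of chromosome 9. No annotation of exons for mm9 was used here.
S100a8: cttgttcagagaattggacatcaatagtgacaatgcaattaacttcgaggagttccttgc
Camp: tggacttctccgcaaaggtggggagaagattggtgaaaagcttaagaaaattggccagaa
Ltf: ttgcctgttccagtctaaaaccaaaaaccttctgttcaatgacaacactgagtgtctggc
Ngp: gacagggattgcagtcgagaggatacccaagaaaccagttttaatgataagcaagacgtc
Lcn2: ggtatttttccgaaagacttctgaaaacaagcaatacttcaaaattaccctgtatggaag
Mmp9: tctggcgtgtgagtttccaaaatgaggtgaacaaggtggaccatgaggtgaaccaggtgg

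Proteins of the C/EBP family drive granule genes in developing neutrophils, and their sites share the letters TTGCNNAA. This motif, or TTNNGCAA on the other strand, was searched in the 250 bases before the RefSeq start of each gene on GRCm38.p6, and it was found in 6 of the 9 members with an entry. It was found in 3142 of all 32851 promoters, or 9.56%. The 4 windows below are those of Ltf, Ngp and Lcn2, which varied together across arrays, and of Mmp8, which was not in that set. Capitals mark the motif. Its first base lies 75 bases before the start in Ltf, 138 and 11 in Ngp, 216 in Lcn2 and 19 in Mmp8. S100a9 holds it 236 and Retnlg 246 bases before the start. The letters were not found in the windows of S100a8, Camp and Chil3. The Ltf window is chr9:111019042-111019291 on the plus strand, that of Ngp chr9:110419558-110419807 on the plus strand, that of Lcn2 chr2:32387740-32387989 on the minus strand and that of Mmp8 chr9:7558179-7558428 on the plus strand.
Ltf: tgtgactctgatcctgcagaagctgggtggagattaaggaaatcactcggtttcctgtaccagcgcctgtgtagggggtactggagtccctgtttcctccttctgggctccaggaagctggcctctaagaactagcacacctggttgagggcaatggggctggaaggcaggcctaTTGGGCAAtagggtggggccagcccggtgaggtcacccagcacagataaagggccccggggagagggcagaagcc
Ngp: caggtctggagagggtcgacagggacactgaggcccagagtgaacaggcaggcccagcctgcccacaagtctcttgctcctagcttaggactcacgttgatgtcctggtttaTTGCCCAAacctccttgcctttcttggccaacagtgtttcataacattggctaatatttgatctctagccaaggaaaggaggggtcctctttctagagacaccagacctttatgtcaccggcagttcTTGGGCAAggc
Lcn2: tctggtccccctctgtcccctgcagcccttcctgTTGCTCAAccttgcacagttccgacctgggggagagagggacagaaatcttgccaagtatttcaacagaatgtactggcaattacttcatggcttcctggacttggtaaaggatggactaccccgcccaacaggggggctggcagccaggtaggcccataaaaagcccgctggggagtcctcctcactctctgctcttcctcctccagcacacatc
Mmp8: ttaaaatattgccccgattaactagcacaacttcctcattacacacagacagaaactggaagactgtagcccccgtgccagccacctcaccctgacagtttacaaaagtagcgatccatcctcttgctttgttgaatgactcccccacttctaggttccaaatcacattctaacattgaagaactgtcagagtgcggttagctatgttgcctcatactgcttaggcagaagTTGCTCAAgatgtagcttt

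S100a8 encodes a subunit of calprotectin. It stood at 3.86, 3.59, 3.97, -0.57 and 2.86 in ptaquiloside mice 1 to 5, at 4.23, 4.84, 5.58, 4.69 and 2.94 in selenium mice and at 5.54, 4.12, 3.89, 4.02 and 4.26 in mice given both compounds. Control mice 1 to 5 had 4.61, 4.196, 2.99, 3.26 and 4.32. The 4 groups overlapped, and the value of -0.57 was the only one of the 20 not well above background. S100a9, the other subunit, had 7.77, 7.33, 7.80, 5.39 and 6.58 in ptaquiloside mice, 7.97, 8.28, 8.97, 8.30 and 6.67 in selenium mice and 8.87, 7.77, 7.53, 7.69 and 8.39 in mice given both compounds. Control mice had 8.17, 7.67, 6.86, 6.94 and 7.94 for S100a9. For both genes the order of group means was selenium or both compounds, then control, then ptaquiloside. S100a8 averaged 2.74 ± 1.90 with ptaquiloside, 4.46 ± 0.98 with selenium, 4.37 ± 0.67 with both compounds and 3.87 ± 0.71 in control mice (SD, n = 5 each). S100a9 averaged 6.97 ± 1.01, 8.04 ± 0.85, 8.05 ± 0.56 and 7.52 ± 0.59 in the same order (SD, n = 5 each). Neighbouring means in that order differed by less than the larger of their SDs.

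The specific granule genes showed the same array-to-array pattern. Camp, the precursor of the antimicrobial cathelicidin peptide, had 4.11, 3.47, 3.51, 1.58 and 2.60 in ptaquiloside mice 1 to 5, 4.1999, 4.23, 5.59, 4.51 and 2.74 in selenium mice and 5.05, 3.89, 3.46, 3.93 and 4.86 in mice given both compounds. Camp had 4.36, 3.71, 2.99, 2.85 and 3.91 in control mice. Its highest value was in selenium mouse 3 and its lowest in ptaquiloside mouse 4. Ltf encodes lactoferrin, the iron-binding protein of specific granules. Ltf had 3.19, 2.42, 2.90, 0.17 and 1.60 in ptaquiloside mice, 3.08, 3.47, 4.63, 3.50 and 2.15 in selenium mice and 4.68, 2.89, 2.62, 3.14 and 3.02 in mice given both compounds. Control mice had 2.98, 2.68, 2.59, 2.30 and 3.42 for Ltf. The highest Ltf value was in mouse 1 given both compounds. A further Ltf probe correlated with this one at r = 0.993 over 19 arrays, the dim array left out.

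Ngp encodes neutrophilic granule protein, a cystatin-like protein. It had 3.50, 2.35, 2.89, 0.55 and 1.28 in ptaquiloside mice 1 to 5, 3.37, 3.22, 4.49, 3.30 and 2.00 in selenium mice and 4.48, 2.81, 2.52, 2.96 and 2.26 in mice given both compounds. Ngp had 3.10, 2.14, 2.79, 1.83 and 3.08 in control mice. Lcn2 encodes lipocalin 2, which sequesters bacterial siderophores. Lcn2 had -1.02, -1.08, -1.01, -2.90 and -2.43 in ptaquiloside mice, -0.69, 0.01, 0.85, -0.54 and -1.69 in selenium mice and 1.09, -0.85, -1.09, -1.09 and -1.43 in mice given both compounds. Control mice had -0.62, -1.10, -1.53, -1.69 and -0.54 for Lcn2. Its ptaquiloside mouse 4 value was not well above background, and the group given both compounds had 1 high mouse and 4 that lay within the control range. Chil3, a chitinase-like protein of specific granules and of alternatively activated macrophages, had a different profile. Chil3 had 6.49, 6.31, 4.92, 4.01 and 6.00 in ptaquiloside mice, 5.96, 6.06, 6.56, 5.56 and 6.99 in selenium mice and 6.85, 6.49, 5.80, 6.57 and 6.15 in mice given both compounds. Control mice had 6.24, 6.14, 5.65, 6.40 and 6.31, so ptaquiloside mice 3 and 4 and selenium mouse 4 were the ones below the control range.

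The members expressed late in neutrophil maturation had other patterns. Mmp8, neutrophil collagenase, had 0.06, -0.15, -2.06, -0.61 and 0.04 in ptaquiloside mice 1 to 5, -0.94, -1.26, -2.01, -2.85 and 0.30 in selenium mice and -0.13, -0.08, -1.46, -0.78 and -0.25 in mice given both compounds. Mmp8 had -1.37, -0.08, -0.62, -0.28 and -0.08 in control mice. Its lowest value was in selenium mouse 4 and its highest in selenium mouse 5. Mmp9, the gelatinase that names the last granules, had -1.71, -0.07, -0.96, -0.88 and -0.34 in ptaquiloside mice, -0.54, 0.08, 0.06, 0.33 and 0.54 in selenium mice and -1.54, -0.81, 0.11, -0.57 and -0.46 in mice given both compounds. Control mice had -0.83, 0.10, 0.15, 0.47 and 0.07 for Mmp9. On slide 1 the Mmp9 mean over the 4 groups was -1.15, against -0.17 to -0.05 on the other slides. Retnlg, a resistin-like secreted protein of mouse myeloid cells, had 3.45, 5.72, 3.72, 4.07 and 4.88 in ptaquiloside mice, 4.74, 5.79, 5.88, 5.42 and 5.16 in selenium mice and 3.74, 4.76, 5.30, 4.85 and 5.68 in mice given both compounds. Retnlg had 4.57, 5.68, 5.44, 5.28 and 5.03 in control mice, and like Mmp9 it was lowest on slide 1, with a mean of 4.12 against 4.90 to 5.49 on the other slides.

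Group means of the remaining members were ordered in the same or another way, with SDs over 5 mice each. Camp averaged 3.06 ± 0.99 with ptaquiloside, 4.25 ± 1.02 with selenium, 4.24 ± 0.69 with both compounds and 3.57 ± 0.64 in control mice. Ltf averaged 2.06 ± 1.21, 3.37 ± 0.89, 3.27 ± 0.81 and 2.79 ± 0.43 in that order of groups, and Lcn2 -1.69 ± 0.91, -0.41 ± 0.93, -0.67 ± 1.01 and -1.10 ± 0.52. In Camp, Ltf, Ngp and Lcn2 selenium was highest and ptaquiloside lowest, and neighbouring means differed by less than the larger SD. Mmp9 averaged -0.79 ± 0.63 with ptaquiloside, 0.09 ± 0.41 with selenium, -0.66 ± 0.60 with both compounds and -0.01 ± 0.49 in control mice. Its means formed 2 pairs, selenium with control and both compounds with ptaquiloside. With all mice the gap between the pairs was larger than any of the 4 SDs. Without ptaquiloside mouse 4, the mouse of the dim array, Mmp9 averaged -0.77 ± 0.73 with ptaquiloside (SD, n = 4). That SD was larger than the gap. Retnlg averaged 4.37 ± 0.93, 5.40 ± 0.47, 4.86 ± 0.73 and 5.20 ± 0.42 in the same order of groups, and Mmp8 -0.54 ± 0.89, -1.35 ± 1.19, -0.54 ± 0.58 and -0.49 ± 0.54, with selenium lowest.

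**Figure D1:**
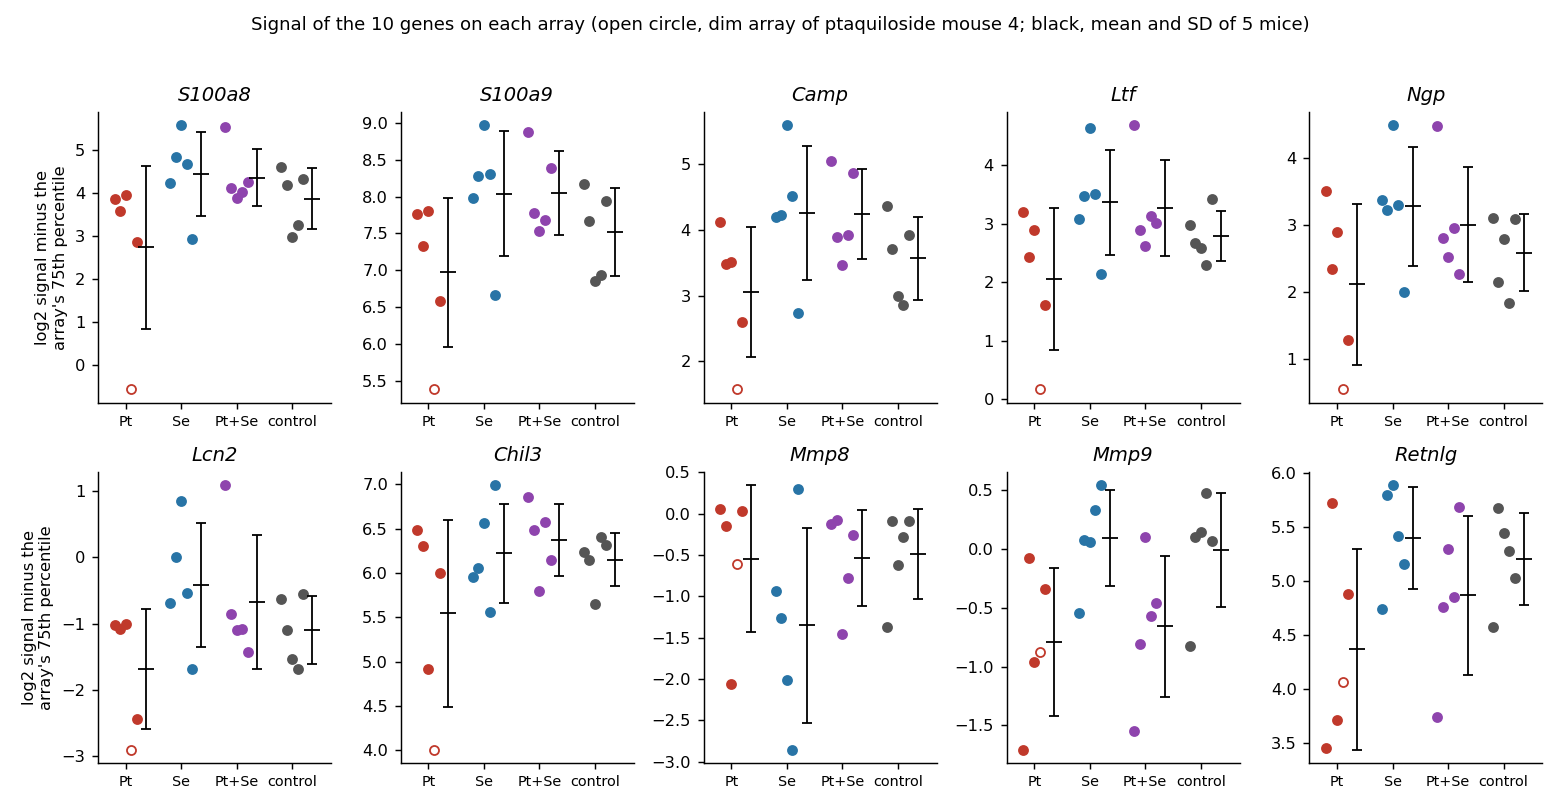
Level of each of the 10 genes on every array (vertical axes, log2 signal minus the 75th percentile of the array) for ptaquiloside (Pt), selenium (Se), both compounds (Pt+Se) and control mice. Points are mice 1 to 5 from left to right, black bars are mean and SD of 5 mice, and the open circle of the dim array is the lowest point for 7 genes.

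The dim array held the lowest of the 20 values for 7 of the 10 members, the exceptions being Mmp8, Mmp9 and Retnlg. S100a8, S100a9, Camp, Ltf, Ngp and Lcn2 each had their second lowest value in ptaquiloside mouse 5, whose array was not dim. Selenium mouse 3 had the highest value of 5 members, selenium mouse 5 of 3 and mouse 1 of the group given both compounds of 2. In the plot of the levels the spread of the ptaquiloside group is therefore set largely by mouse 4 for S100a8, with an SD of 1.90 with that mouse and 0.50 without it.

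Ptaquiloside against control asked what the toxin alone did. All 10 members averaged lower with ptaquiloside, with a median difference of -0.60, and of -0.24 without ptaquiloside mouse 4. Over all 17466 genes the median difference was -0.004, with 8678 genes higher and 8788 lower. The largest difference was that of S100a8 at -1.13 ± 0.70 (SE), which was -0.30 ± 0.47 (SE) without that mouse. Mmp9 and Retnlg kept their size without the dim array, at -0.79 ± 0.34 and -0.76 ± 0.36 (SE) for Mmp9 and at -0.83 ± 0.41 and -0.76 ± 0.43 (SE) for Retnlg, with and without it.

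No member passed the test in this comparison. The adjusted p-values from limma were 0.801 to 0.966, and limma called 0 of 17466 genes (0%), with 262 at an unadjusted p under 0.05 and 0 calls and 124 such genes by the methods' t-test. Of the members 1, Mmp9, had an unadjusted p under 0.05 in limma (0.0314), against 1.5% of all genes. Mmp9 was lower with ptaquiloside on each of the 5 slides, by -0.88, -0.18, -1.11, -1.35 and -0.41. Its further probe was lower on each of them too, with a mean difference of -0.74. On slide 4, that of the dim array, neither Mmp9 probe was well above background in the ptaquiloside mouse, so that difference is uncertain in size. With the slide as a block 2 members had an unadjusted p under 0.05, against 2.64% of all genes: Mmp9 at 0.00336 and Retnlg at 0.0173 in limma, each with an adjusted p of 0.666. Retnlg differed by -1.12, 0.04, -1.73, -1.21 and -0.15 on slides 1 to 5. No member had groups that did not overlap, against 0.0576% of all genes for higher and 0.0518% for lower. With normexp background correction Mmp9 differed by -0.40 and Lcn2 by -0.02, and in the authors' deposited table, where ptaquiloside mouse 4 and control mouse 1 were replaced by means and were left out here, S100a9, Camp and Ngp differed by 0.02, 0.06 and 0.05. B cell markers averaged lower in 10 of 12 genes in the same comparison, and in 12 of 12 without ptaquiloside mouse 4. Their linear signal over the 75th percentile, summed over the genes, was 13.2 to 103.9 with ptaquiloside, or 15.8 to 103.9 without that mouse. In control mice the sum was 38.9 to 96.1. The part of other cells in these differences was not tested.

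**Figure D2:**
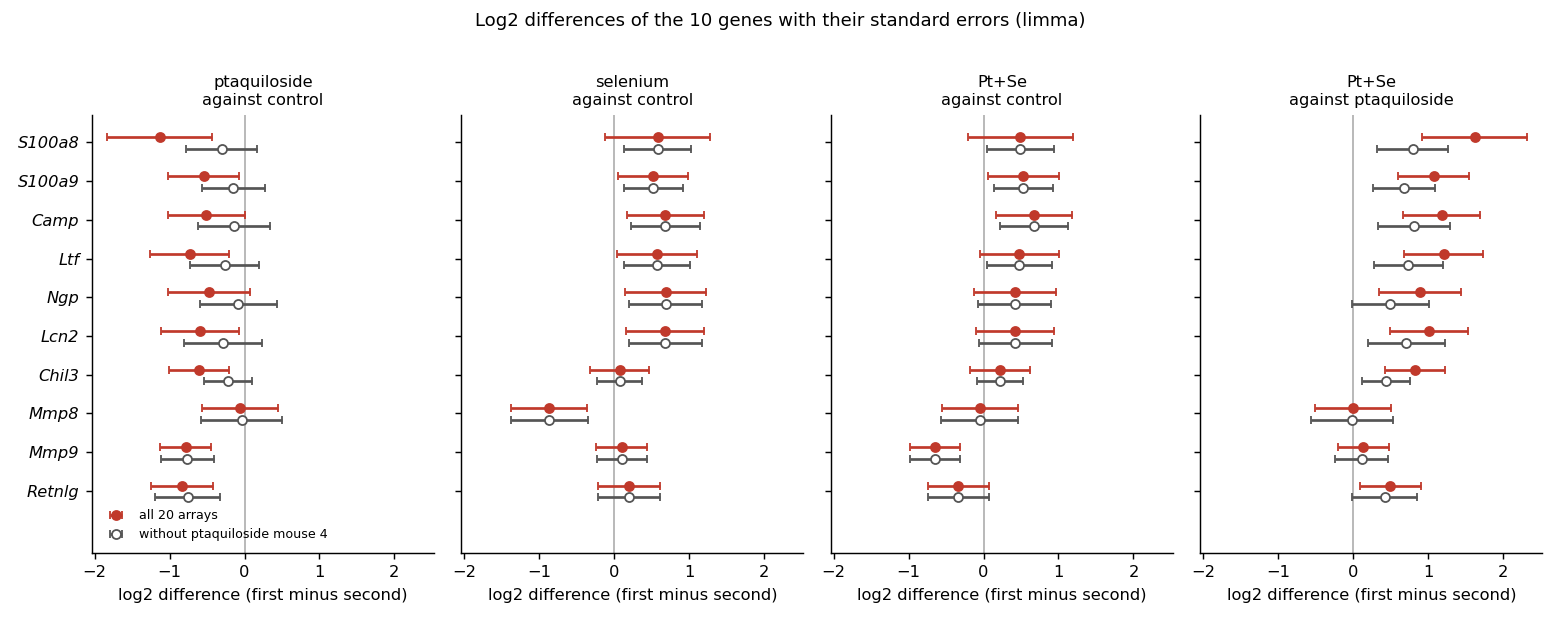
Log2 difference (horizontal axis) of each of the 10 genes in 4 comparisons, with bars for the standard error from limma, on all 20 arrays (filled) and without ptaquiloside mouse 4 (open). Against control, the ptaquiloside difference of S100a8 is -1.13 with the dim array and -0.30 without it, and that of Mmp9 is -0.79 and -0.76.

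Selenium against control asked what selenium alone did. Of the 10 members 9 averaged higher with selenium, with a median difference of 0.55 against 0.01 over all genes, of which 9207 were higher and 8259 lower. Camp, Ngp and Lcn2 had the largest positive differences, at 0.69 ± 0.51, 0.69 ± 0.54 and 0.68 ± 0.52 (SE), followed by S100a8 at 0.58 ± 0.70 (SE). Mmp8 was the member that averaged lower, at -0.86 ± 0.51 (SE). Mmp9 and Chil3 differed by 0.10 ± 0.34 and 0.07 ± 0.40 (SE), less than their standard errors, and the further Mmp9 probe differed by -0.09.

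No member passed the test for selenium against control. Camp differed by -0.16, 0.51, 2.60, 1.65 and -1.18 on slides 1 to 5, and Mmp8 by 0.44, -1.18, -1.39, -2.58 and 0.39. Neither kept its direction on all slides, and Retnlg alone among the members was higher with selenium on each of the 5 slides, by 0.11 to 0.44, with a mean difference of 0.20 ± 0.41 (SE). The adjusted p from limma was 1 for every member, limma called 0 of 17466 genes (0%) with 184 at an unadjusted p under 0.05 (1.05%), and the methods' t-test made 0 calls with 587 such genes. Of the members 0 had an unadjusted p under 0.05 in limma, and without ptaquiloside mouse 4, whose array enters the pooled spread, 0 did, against 2.61%. With the slide as a block 1 did, Mmp8 at 0.0475, against 1.9% of all genes. No member's groups failed to overlap, against 0.213% of all genes for higher and 0.276% for lower. The median difference of the members was 0.27 without selenium mouse 3 and 0.87 without selenium mouse 5. With normexp background correction Mmp8 differed by -0.34 and Lcn2 by 0.37, and in the authors' deposited table Mmp9 differed by -0.10.

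Both compounds against control asked what the combination did. With both compounds 7 of the 10 members averaged higher and 3 lower, with a median difference of 0.42, against 0.02 over all genes (9522 higher and 7944 lower). Camp at 0.67 ± 0.51 (SE) and S100a9 at 0.53 ± 0.47 (SE) were higher on each of the 5 slides. Mmp9 at -0.65 ± 0.34 (SE) was lower on each of the 5 slides, and its further probe on 4 of 5, with a mean difference of -0.81. Lcn2 differed by 0.42 ± 0.52 (SE) with all mice and by -0.02 without mouse 1 given both compounds.

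The adjusted p from limma was 1 for every member. Over all genes limma made 0 calls (0%) with 40 genes at an unadjusted p under 0.05 (0.229%), and the methods' t-test 0 calls with 173 such genes. No member had an unadjusted p under 0.05, Mmp9 being at 0.0699 in limma. With the slide as a block 1 did, Mmp9 at 0.0116, against 0.407% of all genes. No member's groups were free of overlap, against 0.0634% of all genes for higher and 0.0864% for lower. Without mouse 1 given both compounds the median difference of the members was 0.08, and with normexp background correction that of Mmp9 was -0.39.

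Both compounds against ptaquiloside alone asked what selenium did in mice given the toxin. All 10 members averaged higher with both compounds, with a median difference of 0.95, and 9 of 10 without ptaquiloside mouse 4, with a median of 0.59. The median over all genes was 0.01 with that mouse and 0.02 without it. S100a8 differed by 1.62 ± 0.70 (SE), a ratio of 3.08, and by 0.80 ± 0.47 (SE) without ptaquiloside mouse 4. S100a9 differed by 1.08 and 0.68, Camp by 1.18 and 0.81 and Ltf by 1.21 and 0.74, with and without it. Mmp8 differed by 0.0043 ± 0.51 (SE), and Mmp9 by 0.14 ± 0.34 (SE), while its further probe differed by -0.06.

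The 4 members S100a8, S100a9, Camp and Ltf had an unadjusted p under 0.05 in limma (0.0311, 0.0337, 0.0321 and 0.0340), against 2.43% of all genes. Without ptaquiloside mouse 4 none of the 10 did, against 2.77% of all genes. With the slide as a block 6 members did, against 4.1% of all genes, and without that mouse 0 did, against 4.52%. Adjusted p-values were 0.821 to 0.999 in limma, which made 0 calls (0%) with 424 genes at an unadjusted p under 0.05. S100a8 differed by 1.67, 0.53, -0.08, 4.59 and 1.40 on slides 1 to 5, and slide 4 is that of the dim array. Chil3 was the member that was higher with both compounds on each of the 5 slides, by 0.15 to 2.56. No member's groups were free of overlap, against 0.104% of all genes for higher and 0.0921% for lower. With normexp background correction Lcn2 differed by 0.31 and Mmp8 by -0.07.

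Both compounds against selenium alone asked what the toxin did in mice given selenium. With both compounds 3 members averaged higher and 7 lower, with a median difference of -0.09, and 0.0005 over all genes. Mmp9 differed by -0.75 ± 0.34 (SE) with an unadjusted p of 0.0388 in limma, the 1 member of 10 under 0.05, against 0.584% of all genes, and 1 of 10 against 1.69% without ptaquiloside mouse 4. It was lower with both compounds on 4 of 5 slides, with an unadjusted p of 0.00463 with the slide as a block, again the 1 member under 0.05, against 1.13% of all genes. Its further probe differed by -0.72 and was lower on 3 of 5 slides. Mmp8 differed by 0.81 ± 0.51 (SE) and Retnlg by -0.53 ± 0.41 (SE), and each of the remaining 7 members by less than its standard error. The adjusted p from limma was 1.00 for every member, and limma made 0 calls (0%) with 102 genes at an unadjusted p under 0.05. No member's groups were free of overlap, against 0.0978% of all genes for higher and 0.0576% for lower. The median of the members was 0.20 without selenium mouse 3 and -0.44 without selenium mouse 5, and with normexp background correction Mmp9 differed by -0.43 and Mmp8 by 0.25.

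The interaction of the compounds, the difference between the selenium effect with and without ptaquiloside, was 1.04 ± 0.99 (SE) for S100a8, and 0.21 without ptaquiloside mouse 4. Mmp8 had 0.87 ± 0.72 (SE) and 0.85 without that mouse, Chil3 0.75 ± 0.56 (SE) and 0.37, and Mmp9 0.04 ± 0.48 (SE) and 0.01. Adjusted p-values from limma were 0.998 to 0.999, 0 members had an unadjusted p under 0.05, against 1.2% of all genes, and 0 against 2.27% without that mouse. Over all genes limma called 0 of 17466 genes with 210 at an unadjusted p under 0.05. In the joint test over the 4 groups 1 member, Mmp9, had an unadjusted p under 0.05 (0.0350), against 0.962% of all genes, with an adjusted p of 1 from limma, which called 0 genes with 168 under 0.05.

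**Figure D3:**
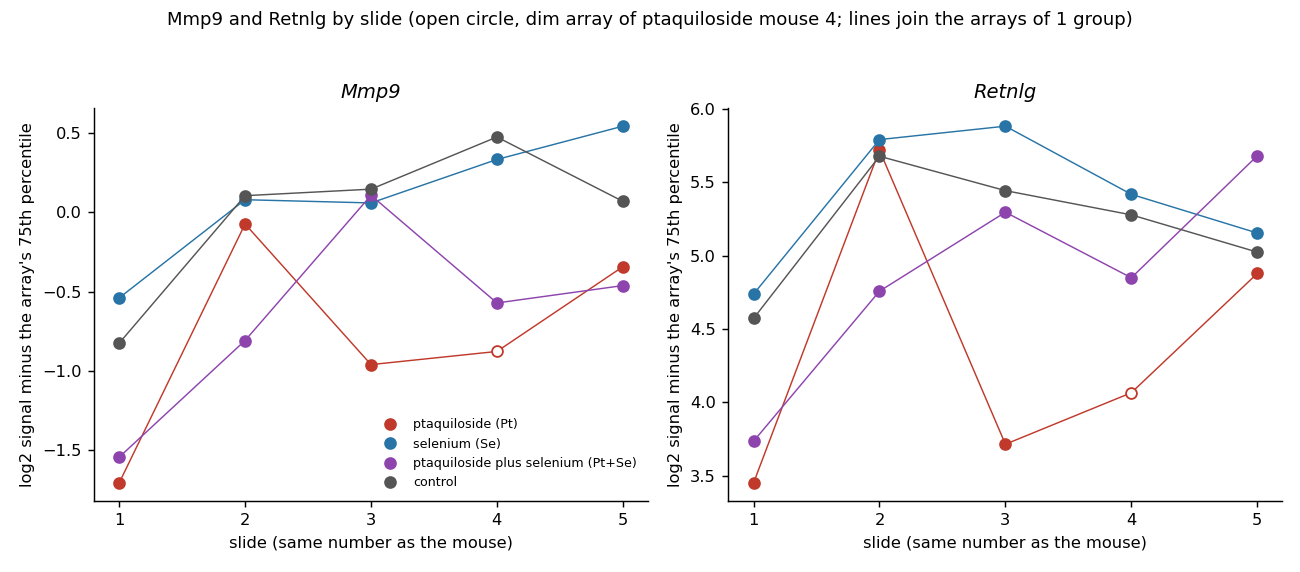
Level of Mmp9 and Retnlg (vertical axes, log2 signal minus the 75th percentile of the array) on slides 1 to 5 (horizontal axes), with 1 mouse of each group per slide and lines joining the mice of a group. Ptaquiloside lies below control for Mmp9 on all 5 slides, by -0.18 to -1.35, and both genes are lowest on slide 1. The ptaquiloside array of slide 4 (open circle) was dim, and Mmp9 was not well above background there.

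Spread between spots of 1 array was measured for Mmp9 only, because its further probe is printed 10 times on each array. This does not cover spread from cell isolation, labelling, hybridisation or slides. The SD between those spots had a median of 0.146 over the 20 arrays, with a range of 0.0592 to 0.536, the highest on the dim array. The SD of that probe between mice of a group was 0.585, and 0.604 without ptaquiloside mouse 4. The 2 Mmp9 probes correlated at r = 0.842 over 19 arrays.

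Across arrays the members fell into a set of 6 that varied together and 4 whose correlations with them were low or negative. This grouping was made after the values were seen, and the correlations are a description of 19 arrays, the dim one left out, that share slides and scaling. The 15 pairs among S100a8, S100a9, Camp, Ltf, Ngp and Lcn2 had Pearson r of 0.81 to 0.97. With group means removed the range was 0.79 to 0.97, and with slide means removed 0.81 to 0.97. The 24 pairs of 1 of these 6 with Chil3, Mmp8, Mmp9 or Retnlg had r of -0.46 to 0.22, and -0.38 to 0.64 when the dim array was included. With group means removed their range was -0.71 to 0.13, and the 6 pairs with Mmp9 had r of -0.71 to -0.57. Among the other 4 genes Mmp9 and Retnlg had r = 0.83, Chil3 and Mmp8 had r = 0.60, and the remaining pairs had r of -0.14 to 0.01.

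**Figure D4:**
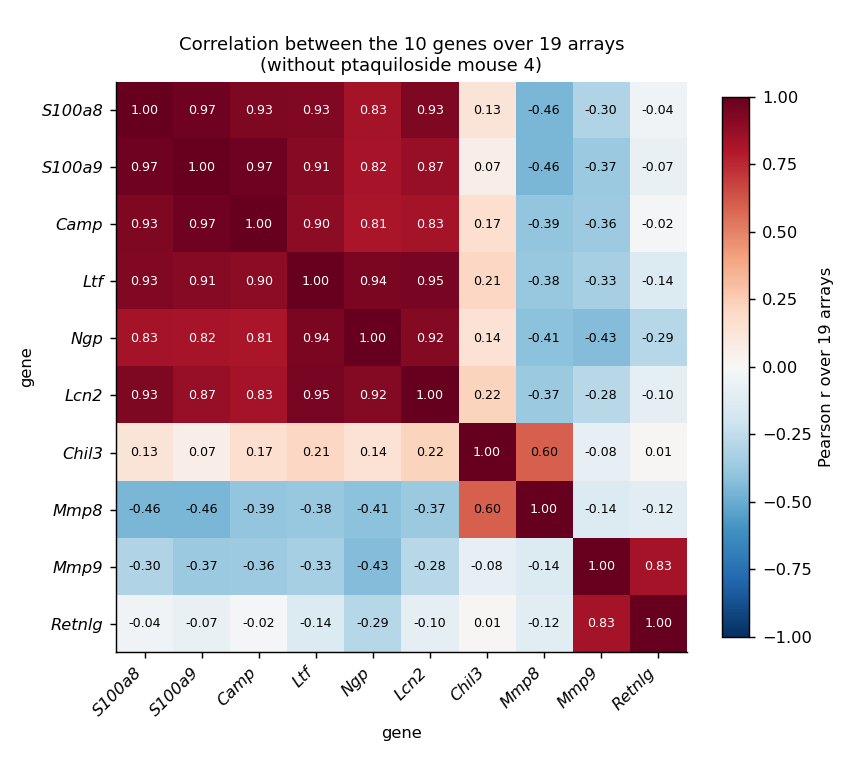
Pearson correlation (colour and printed value) between the levels of the 10 genes over 19 arrays, without ptaquiloside mouse 4, with the genes on both axes. The block of 6 genes from S100a8 to Lcn2 holds values of 0.81 to 0.97, and Mmp9 with Retnlg 0.83.

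The early genes of granule formation varied with the set of 6. For each list of genes the mean over its members, each centred on its own mean, was set against the mean of the 6 over the same 19 arrays. The azurophil list of 9 genes correlated with the 6 at r = 0.86, and at r = 0.83 within groups. Within it Mpo, Ctsg, Ms4a3, Elane, Prtn3, Fcnb and Prss57 had r of 0.83 to 0.88 each, whereas the lysozyme gene Lyz2 and the protease-activating Ctsc, which monocytes and other leukocytes also express, had -0.51 and -0.36. The mean of Mmp8, Mmp9 and Retnlg correlated with the 6 at r = -0.47, and at r = -0.61 within groups. With a list of 21 mature neutrophil surface genes that mean had r = 0.53. Its r was higher with other S100 genes, at 0.62, and with factors of granulocyte formation, at 0.57. Among other lists of the neutrophil program the r with the 6 was 0.55 for other specific and gelatinase granule genes, -0.30 for the mature surface genes, -0.59 for factors of granulocyte formation, -0.53 for receptors, partners and inhibitors and -0.11 for other S100 genes. For the NK list the r with the 6 was 0.17, for monocyte and macrophage genes -0.37, for T cell genes 0.01, for B cell genes 0.30, for erythroid genes 0.49, for platelet genes -0.12 and for eosinophil, basophil and mast cell genes 0.51. The r with the 75th percentile of the scanner signal was 0.01.

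Most azurophil genes averaged higher with selenium, and all of them lower with ptaquiloside, than in control mice. With selenium 7 of 9 averaged higher and 2, Lyz2 and Ctsc, lower, with a median difference of 0.86, and 3 had an unadjusted p under 0.05 in limma, against 1.05% of all genes, and 0 after adjustment. Elane, neutrophil elastase, had -0.52, 0.04, -0.62, -0.89 and -1.03 in ptaquiloside mice 1 to 5, 1.12, 0.61, 2.03, 0.61 and -0.80 in selenium mice and 1.30, 0.34, -0.17, -0.21 and -0.19 in mice given both compounds. Control mice had 0.48, 0.33, -0.59, -1.21 and -0.51 for Elane. Selenium mouse 3 was again the highest array and mouse 1 of the group given both compounds the next. With ptaquiloside 9 of 9 averaged lower, with a median of -0.28 with and without mouse 4, and with both compounds 7 of 9 averaged higher than control, with a median of 0.46. Mpo, myeloperoxidase, averaged 5.26 with ptaquiloside, 6.34 with selenium, 5.89 with both compounds and 5.40 in control mice. Mpo was not low on the dim array, where it stood at 5.83.

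**Figure D5:**
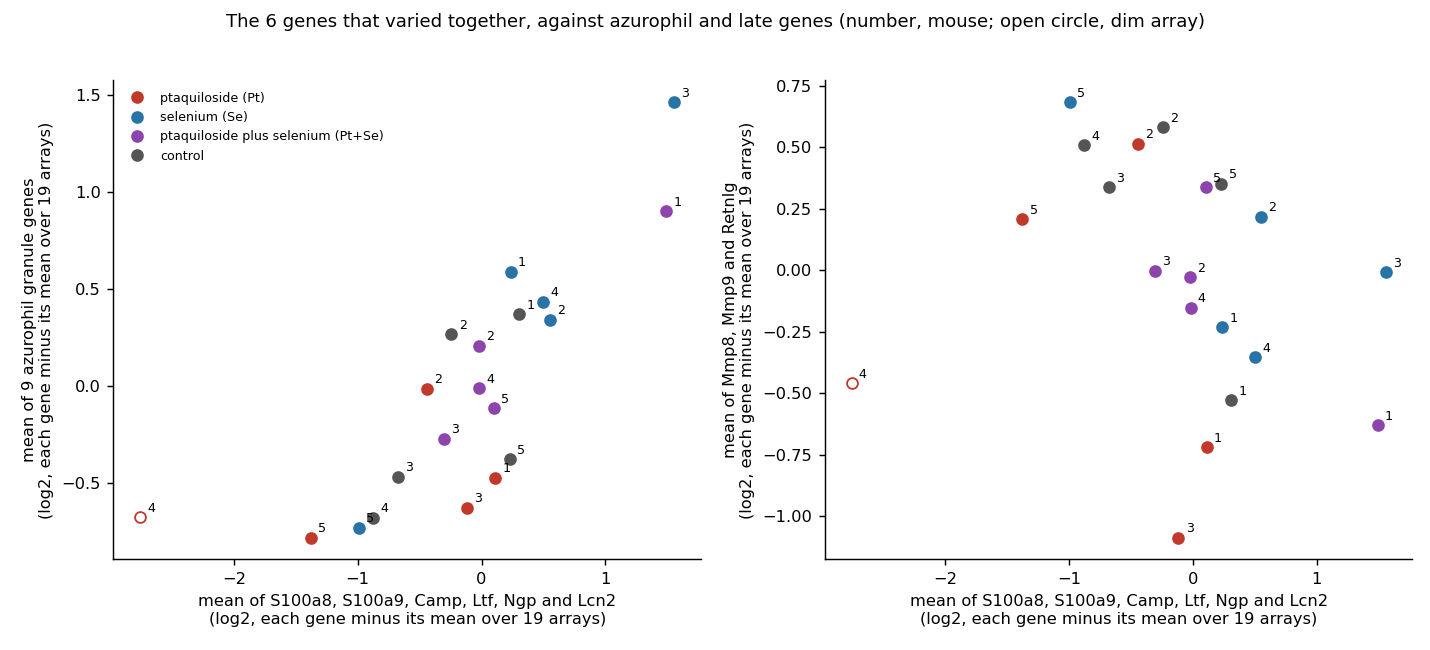
Mean centred level of the 6 genes that varied together (horizontal axes, log2) against that of 9 azurophil granule genes (left) and of Mmp8, Mmp9 and Retnlg (right). Each point is a mouse with its number, and the open circle is the dim array. Over the 19 other arrays the azurophil mean rises with the 6 (r = 0.86), and the late mean has r = -0.47.

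Early and late granule genes were compared within each array as the mean of Mmp8, Mmp9 and Retnlg minus the mean of Camp, Ltf, Ngp, Lcn2 and Chil3, each gene centred on its own mean over 19 arrays. This difference was -0.96, 0.84, -0.71, 1.88 and 1.41 in ptaquiloside mice 1 to 5, -0.40, -0.16, -1.41, -0.60 and 1.26 in selenium mice and -2.04, -0.06, 0.36, -0.24 and 0.38 in mice given both compounds. Control mice had -0.72, 0.88, 0.86, 1.19 and 0.13. The 4 groups overlapped. It averaged 0.02 more with ptaquiloside than in control mice, and -0.32 without ptaquiloside mouse 4, the lowest value when single arrays were left out, and 0.39 without ptaquiloside mouse 1, the highest. With selenium it differed from control by -0.73, with both compounds from control by -0.79 and with both compounds from ptaquiloside by -0.81. With both compounds it differed from selenium by -0.06. Every one of these differences was smaller than the SD between mice of a group, 1.02, and no p-value was computed for this score. Without mouse 1 given both compounds the difference was -0.36 against control, -0.38 against ptaquiloside and 0.37 against selenium. At the other end it was -1.08 against control without control mouse 1 and -1.17 against ptaquiloside without ptaquiloside mouse 1. Both were larger in size than that SD. Against selenium it was -0.35 without selenium mouse 3. The selenium difference from control was -0.44 without selenium mouse 3 and -1.11 without selenium mouse 5, the latter also larger in size than that SD. Of the 3 late genes Mmp8 alone averaged lower with selenium than in control mice, at -0.86. Mmp9 and Retnlg averaged higher, at 0.10 and 0.20.

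Other genes of the neutrophil program, from lists drawn up for this comparison, gave other counts. Of 21 mature neutrophil surface genes 4 averaged higher and 17 lower with ptaquiloside than in control mice, 5 and 16 with selenium, and 5 and 16 with both compounds. Their median differences were -0.36, -0.30 and -0.26. Without ptaquiloside mouse 4, 6 averaged higher and 15 lower with ptaquiloside, with a median of -0.19. Among the 4 with the highest signal, Il1b, the inflammatory cytokine interleukin 1 beta, differed by -0.03, -0.21 and -0.27, and Clec4e, the C-type lectin Mincle, by -0.34, -0.70 and -0.38. The inhibitory receptor gene Pirb differed by -0.33, -0.34 and -0.32, and Hdc, histidine decarboxylase, by -0.72, 0.05 and -0.37. The ptaquiloside differences without mouse 4 were 0.07 for Il1b, 0.02 for Clec4e, -0.21 for Pirb and -0.43 for Hdc. Of 15 other specific and gelatinase granule genes 3 averaged higher and 12 lower with ptaquiloside, with a median of -0.32, or 2 and 13 with a median of -0.21 without mouse 4, and 10 higher and 5 lower with selenium, with a median of 0.08. In this list Slpi, a protease inhibitor, differed by 0.29 with ptaquiloside, or 0.56 without mouse 4, and by -0.35 with selenium. Anxa1, annexin A1, differed by -0.97 with ptaquiloside, or -0.13 without mouse 4, and by 0.0026 with selenium. None of these genes passed the test after adjustment.

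Transcription factors and receptors of granulocyte formation depended on the dim array. All 10 averaged lower with ptaquiloside than in control mice, with a median of -0.54, but 5 were higher and 5 lower without mouse 4, with a median of 0.02. Cebpb, a C/EBP factor of emergency granulocyte formation, differed by -0.50 and by 0.06 without it. With selenium 5 averaged higher and 5 lower. Of the 10 other S100 genes tested 4 averaged higher and 6 lower with ptaquiloside than in control mice, and 5 and 5 with selenium and with both compounds, with medians of -0.05 with ptaquiloside, or -0.12 without mouse 4, -0.004 with selenium and 0.02 with both compounds. S100a4, the calcium-binding protein of motile cells, averaged 7.62 with ptaquiloside, 7.36 with selenium, 7.67 with both compounds and 7.82 in control mice. S100a6 differed from control by -0.21, -0.13 and 0.06 in the same order of treatments. Of 13 genes for receptors, binding partners and inhibitors of the members' proteins 1 averaged higher and 12 lower with selenium, with a median of -0.34, and 6 higher and 7 lower with ptaquiloside. Timp2, an inhibitor of matrix metalloproteinases, differed by -0.29 with ptaquiloside and -0.15 with selenium, and Lrp1, a receptor that clears lactoferrin, by -0.35 and -0.57.

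Markers of other spleen cells also averaged higher or lower in the treated groups. None of the genes in these lists passed the test after adjustment. NK genes averaged higher in 15 of 16 with selenium (median 0.20), and in 3 of 16 with ptaquiloside, or 14 of 16 without mouse 4. Their summed level, the linear signal over the 75th percentile of the array added over the genes, was 388 to 963 with ptaquiloside, or 760.5 to 963 without mouse 4, 773 to 1186 with selenium, 701 to 909 with both compounds and 636 to 1013 in control mice. The summed level of the 10 members was 82.3 to 372.5, 290.1 to 800.0, 319.1 to 728.0 and 240.7 to 451.3 in the same order, and the 4 ranges overlapped. Without ptaquiloside mouse 4 the members' range with ptaquiloside was 209.7 to 372.5. Of 17 monocyte and macrophage genes 12 averaged lower with selenium (median -0.39), with a summed level of 81.6 to 171.0 against 104.2 to 153.7 in control mice. All 12 B cell genes averaged lower with selenium (median -1.03), with a summed level of 20.5 to 48.0 against 38.9 to 96.1 in control mice. Of 12 T cell genes 11 averaged lower and 1 higher with selenium (median -0.36). Eosinophil, basophil and mast cell genes averaged higher in 6 of 8 with selenium, erythroid genes in 9 of 13 and platelet genes in 10 of 10. The part of these cells in the members' differences was not tested.

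Beyond the members, the genes whose levels were most like the mean of the 10 over the 19 arrays were Oscp1 and Pram1, an adaptor protein of granulocytes, each at r = 0.90, and Wfdc21 and 4930438A08Rik, each at r = 0.89. They were followed by the adhesion gene Vcam1 at 0.88, by Ms4a3 and the azurophil serine protease gene Prss57 at 0.86, by Nuf2 and Oip5, which act at the kinetochore and centromere, at 0.85, and by Elane at 0.85. Of these 10 genes 0 were among the first 10 when the dim array was included. Of the members themselves Ltf, Lcn2, S100a8 and Camp were closest to that mean, which holds them, and Mmp9 and Mmp8 had r of -0.13 and -0.22.

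The nearest gene to each member was found from correlations over the same 19 arrays as the grouping, so it does not test that grouping. Of the following all but Wfdc21 were chosen after their values were seen. Wfdc21 had r = 0.98 with Camp and with S100a9, and Itgb2l r = 0.95 with Ngp and with Ltf. Retnlg was nearest to Siglecf, a sialic acid-binding lectin of eosinophils, at r = 0.89, and Mmp9 to Camk1 at 0.89. Mmp8 was nearest to Slc30a1, a zinc exporter, and to Tgfbi, each at 0.90. Chil3 was nearest to its close paralogue Chil4 at 0.85 and to Hp, haptoglobin, at 0.83, and cross-hybridisation between the paralogues was not tested. The mean of Mmp8 and Chil3 correlated with the monocyte and macrophage list at r = 0.76, Mmp8 alone at 0.81 and Chil3 alone at 0.46. With factors of granulocyte formation the same mean had r = 0.59. The mean of Mmp9 and Retnlg correlated with the mature neutrophil surface list at r = 0.52 and with the other S100 genes at r = 0.59.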

How the data were processed

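Total RNA of 20 NK cell isolates was labelled with Cy3 and hybridised to 1-colour Agilent arrays with positions on mm9 (NCBI37), per the file headers. The deposited intensity values came from Agilent Feature Extraction 9.5.3.1, per the submitters' processing notes, and the processed signal had been background-subtracted and detrended but not scaled between arrays, per the file headers. The deposited flags for signal well above background and for outlier spots (another kind of value, 0 or 1) were used as given. The deposited table of log2 values, in which control mouse 1 and ptaquiloside mouse 4 were replaced by group means, per the file headers, served as an alternative. Set against the scanner files, each of its single-mouse columns is offset from the log2 signal by 19.93, and column medians run over 22.8 to 23.7. The control columns numbered 1 to 4 hold control mice 2 to 5, and the ptaquiloside column numbered 4 holds mouse 5.

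Control spots and outlier spots were left out, spots of a probe were averaged, and each array's 75th percentile was subtracted on the log2 scale. Dim probes were removed by keeping those above background on 5 or more of 20 arrays, and a gene was represented by its probe with the highest mean. Of 41174 probes 25097 were named by accession through RefSeq and 16077 kept the name in the file. All 4 groups were fitted together with limma 3.58.1 in R 4.3.3 (package data.table, version 1.17.8), with Benjamini-Hochberg adjustment over 17466 genes and a threshold of 0.05. The mice were separate animals, and 5 arrays per group limit the precision.

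The members and the gene lists were chosen with earlier results of these data known. All 10 members were named in every comparison, of each list up to 4 genes with the highest mean over all arrays and any azurophil gene, and the 10 other genes with the highest correlation with the member mean. Mouse numbers equal slides. Same-numbered mice of different groups deviated from their group means together in 21 of 27 pairs (r above 0.1, median 0.439), against 34 of 108 pairs with different numbers. A shared slide and a pairing of animals cannot be told apart by this. The main fit held no term for the number, and a block on it was run as an alternative. Alternatives were median centring, quantile normalization, normexp (offset 50), no filter or a filter of 10 arrays, the mean of a gene's probes, a replicate block, the deposited table, the methods' t-test, which is the test named in the header of the deposited table, and leaving out each array.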

Additional observations from a re-analysis of the deposited data

Results flagged for a closer look

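Of 44 groups of 5 mice tested for a sample far from the others, 5 held one. Chance alone would mark about 1 in 20 independent groups. The 44 share mice and genes that varied together, so the count cannot be set against that rate. S100a8 stood at -0.57 in ptaquiloside mouse 4, the dim array, with 2.86 as the nearest value of its group. Mouse 1 of the group given both compounds was high for S100a8 at 5.54 (nearest 4.26), for Ltf at 4.68 (nearest 3.14) and for Lcn2 at 1.09 (nearest -0.85). The late minus specific granule difference of the same mouse was -2.04, with -0.24 as the nearest value. The gap to the nearest mouse exceeded 0.71 of the group's range in each case.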

How the results depend on the processing

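The number of genes called by limma stayed at 0 in all 5 comparisons between groups and in the test for any difference, in every alternative run. For the interaction it was 0 to 1 when single arrays were left out, and the 1 gene, AK036773 (2.47, adjusted p = 0.0273 in limma), appeared when mouse 4 given both compounds was left out. With a replicate block on the mouse number, which is the slide, limma also called 0 genes in each comparison, and 461 genes against 262 had an unadjusted p under 0.05 for ptaquiloside against control. Over 29 alternatives the members' adjusted p-values from limma were 0.521 to 1 for ptaquiloside against control and 0.538 to 0.999 for both compounds against ptaquiloside. The members' median difference was -0.83 to -0.18 for ptaquiloside against control, -0.83 under median centring and -0.18 in the authors' deposited table. Median centring put the median of all genes at -0.24 there, and relative to it the members were at -0.59. It put that median at 0.20 for both compounds against ptaquiloside and at -0.11 for both compounds against selenium. Of the members' values 1404 kept their direction and 46 turned. S100a9, Camp and Ngp, in the authors' deposited table, turned to 0.0156, 0.0581 and 0.0455 for ptaquiloside against control, Mmp9 to -0.10 for selenium against control and Mmp8 to -0.012 for both compounds against ptaquiloside, which was -0.0719 under normexp. For both compounds against selenium S100a9 was -0.0946 under median centring and Camp 0.0388 under quantile normalization. Leaving out single arrays gave, against control, -0.28 to 0.32 for Mmp8 with ptaquiloside, -0.12 to 0.24 for Chil3 and -0.10 to 0.26 for Mmp9 with selenium, and -0.0179 to 0.61 for Lcn2 and -0.27 to 0.18 for Mmp8 with both compounds. For both compounds against ptaquiloside it gave -0.37 to 0.23 for Mmp8 and -0.0921 to 0.36 for Mmp9. For both compounds against selenium it gave -0.47 to 0.19 for S100a8, -0.33 to 0.24 for S100a9, -0.39 to 0.32 for Camp, -0.45 to 0.22 for Ltf, -0.64 to 0.0327 for Ngp, -0.70 to 0.0531 for Lcn2 and -0.0188 to 0.34 for Chil3. The causes of these turns were not tested. Levels near background limit S100a8, Lcn2 and Mmp9 on the array of ptaquiloside mouse 4, where they were not well above background.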
